A study of Homo sapiens with 54 samples.

Results

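The genes described here are UPF1, RIDA (formerly HRSP12) and the protein subunits of RNase P and RNase MRP named POP1, POP4, POP5, POP7, RPP25, RPP30, RPP38 and RPP40. They were chosen by name, and every transcript in the deposited table whose RefSeq accession is annotated to one of them was summed per gene. All 10 genes were found, among 25657 genes named in the table. The study concerned the loss of messenger RNA that carries N6-methyladenosine (m6A), an internal methyl mark, and the part of the m6A reader YTHDF2 in it. It used the human osteosarcoma line U2OS, labelled as wild type, in which YTHDF2 was knocked down by either of 2 siRNAs or a control siRNA was given. Cytoplasmic RNA was taken at 0, 0.5, 1, 2, 4 and 6 h. Each sample was sequenced as total input, as the immunoprecipitate of an m6A antibody and as the flow-through, so that each of the 54 libraries stands alone for its siRNA, fraction and time. No transcription inhibitor is named in the labels, and for 1 library the title and the treatment label name different siRNAs.

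YTHDF2 binds m6A-marked messenger RNA and shortens its life. One route recruits the CCR4-NOT complex, which removes the poly(A) tail. In another, RIDA acts as an adaptor between YTHDF2 and RNase P/MRP, endonucleases that are best known for trimming precursor tRNA and precursor ribosomal RNA and that can cut inside a bound transcript. UPF1, an RNA helicase that is the core factor of nonsense-mediated decay, has also been linked to decay of YTHDF2-bound RNA. RNase P and RNase MRP share most of their protein subunits, and each has a catalytic RNA of its own, RPPH1 for RNase P and RMRP for RNase MRP.

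The table has 54 columns of values, 18 for each of 3 experiment codes, and 0 of the 54 column names appear in a label of the series. Levels are therefore not compared here between siRNAs, fractions or times. The values are TPM, the abundance of a transcript per unit of its length as a share of a total that is the same in every column. TPM keeps no read depth, so the depth is unknown. Of each column, protein-coding (NM) transcripts took between 18.6% and 92.5%, with a median of 32.5%. The signal recognition particle RNA 7SL took a median of 31.0%, ribosomal RNA 7.36% and the 7SK RNA 7.29%. The 10 genes together held between 0.00631% and 0.183% of a column. The labels call the cells epithelial. The epithelial genes EPCAM, CDH1 and KRT19 had median levels of 0, 0.02 and 0.08 TPM. In contrast, the keratins KRT8 and KRT18 had medians of 291.0 and 421.1 TPM. Of 6 mesenchymal and bone genes, VIM, COL1A1 and FN1 had medians of 260.3, 9.17 and 1.965 TPM. SPARC, RUNX2 and COL1A2 had medians of 0.5, 0.11 and 0 TPM. Of 4 blood markers, 0 reached a median of 1 TPM, and their summed level was at most 1.3 TPM.

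All 10 genes had a median of at least 1 TPM, as did 40.2% of all named genes. Of the 10, 9 were at 1 TPM or more in each of the 54 columns, and the exception was RPP38, which was so in 49. The share of all genes at that level in every column is not given here, so this count has no background beside it. The median over the 10 gene medians was 11.6 TPM, beside 8.14 TPM over all 10304 genes with a median of at least 1 TPM. UPF1 ran from 5.71 to 209.1 TPM with a median of 16.3 TPM. RIDA, a small and conserved deaminase-family protein, ran from 3.74 to 56.4 TPM with a median of 14.6 TPM. The ranges overlapped, but UPF1 reached higher: its upper quartile, 60.5 TPM, lay above the highest value of RIDA, and UPF1 was the higher of the pair in 37 of 54 columns. Both lay in the upper part of the genes measured: 69.9% of genes with a median of at least 1 TPM had a median at or below that of UPF1, and 67.0% at or below that of RIDA.

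Among the RNase P/MRP proteins, the highest medians belonged to the small RNA-binding subunits and to a subunit of the core. POP7 (also called RPP20) had a median of 64.9 TPM, with a lowest value of 8.93 and a highest of 536.5 TPM. RPP25, which forms a dimer with POP7 that binds the RNA component, had a median of 34.3 TPM and ran from 6.24 to 523.2 TPM. POP5, which forms a pair with RPP30 in the enzyme, had a median of 39.7 TPM and ran from 23.8 to 273.1 TPM. POP7 exceeded POP5 in 38 columns and POP5 exceeded RPP25 in 34, so neighbours in this order changed places often. In every column, 1 of these 3 genes was the highest of the 10, POP7 in 31, POP5 in 13 and RPP25 in 10.

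The other subunits were lower. POP1, the largest protein of the complexes, had a median of 7.51 TPM, with a lowest value of 2.18 and a highest of 88.6 TPM. POP4 (also called RPP29) had a median of 5.63 TPM and ran from 2.28 to 52.6 TPM. RPP38, a protein of the family that binds kink-turn RNA, had a median of 8.67 TPM and ran from 0.48 to 158.1 TPM, so it was the lowest of the 10 genes in 19 columns and reached rank 4 of the 10 in others. RPP40 had a median of 7.94 TPM and ran from 2.41 to 16.4 TPM. RPP30 had the lowest median, 4.26 TPM, and stayed between 1.84 and 6.91 TPM. RPP38 and RPP40 had no settled order, with RPP38 the higher in 25 columns, and RPP40 exceeded POP1 in 32. POP1 exceeded POP4 in 48 columns, and POP4 exceeded RPP30 in 39.

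**Figure D1:**
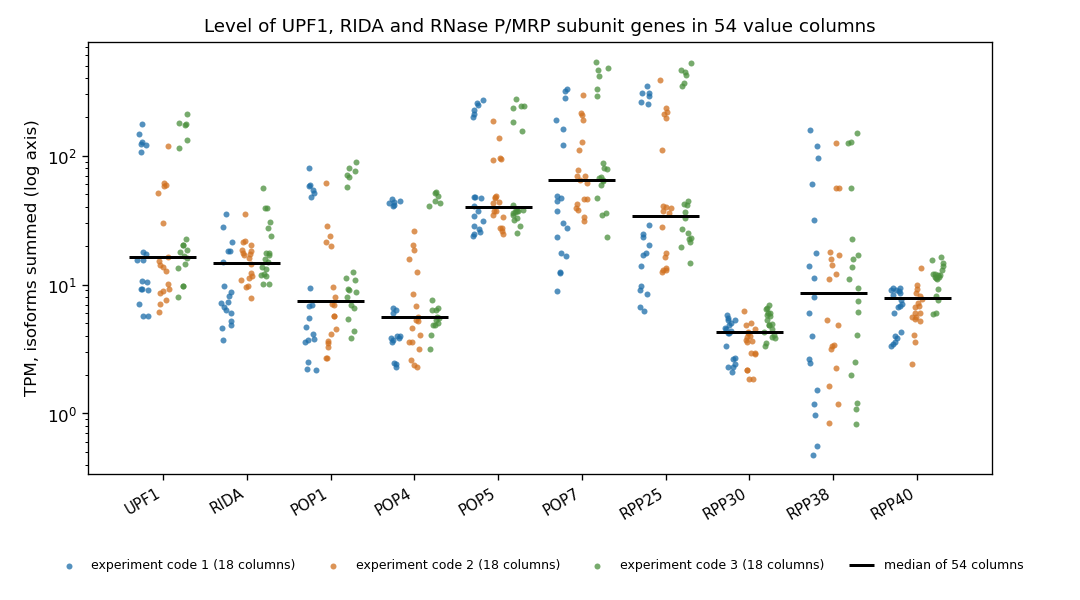
Summed level of each gene in TPM (log axis), with 1 point for each of 54 value columns, coloured by experiment code, and a black bar at the median. RPP30 keeps within 1.84 to 6.91 TPM, whereas RPP38 runs from 0.48 to 158.1 TPM and RPP25 from 6.24 to 523.2 TPM.

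The genes differed widely in how much they varied over the columns. RPP38 had a highest value 329.4 times its lowest, and the same ratio was 83.9 for RPP25, 60.1 for POP7, 40.7 for POP1 and 36.6 for UPF1. The RPP38 ratio rests on a lowest value of 0.48 TPM and was 107.5 with 1 TPM added to every value and 40.4 with median of ratios scaling. The ratio in TPM was 23.1 for POP4, 15.1 for RIDA and 11.5 for POP5. RPP40 and RPP30 varied least, with ratios of 6.79 and 3.76. The median ratio was 29.8 over the 10 genes and 16.8 over all genes with a median of at least 1 TPM, but it was 32.7 over all genes with a median above 0, so the order of the 2 medians turned with the filter on low values. RPP30 was at the narrow extreme of the whole table, since 0.359% of those genes had a smaller ratio. RPP38 was near the wide extreme, with 95.7% of genes having a smaller one. Between quartiles the widest of the 10 was RPP25, whose upper quartile was 13.1 times the lower, while RPP38 followed at 7.20 times. The ratio of quartiles was 6.22 for UPF1, 1.90 for RIDA and 1.52 for RPP30, which was the narrowest again.

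Because TPM is a share of the column, the level of a messenger RNA moves with the amount of structural RNA in the library. Its part in the ranges above was not tested. The genes were therefore also rescaled so that the protein-coding transcripts of a column make up its whole TPM total. On that scale the median of UPF1 was 47.1 and its range 26.4 to 226.6. RIDA had a median of 36.3 and a range of 17.9 to 68.4. The ratio of highest to lowest was 8.57 for UPF1 and 3.82 for RIDA, and the median over the 10 genes was 7.04, beside 6.74 over all genes. RPP38 had a ratio of 73.6, and 94.5% of genes had a smaller one.

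The narrow range of RPP30 belonged to the TPM scale. Within protein-coding RNA, RPP30 ran from 4.10 to 17.1 with a median of 13, a ratio of 4.17 between highest and lowest, and 30.3% of genes had a smaller ratio. With columns scaled by the median of ratios, a scaling that takes a typical gene as constant, the ratio for RPP30 was 6.78 and 51.8% of genes had a smaller one. POP5 had a ratio of 2.22 on that scale, with 5.12% of genes below it. Which scale comes nearest to the amount of RNA per cell was not tested.

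**Figure D2:**
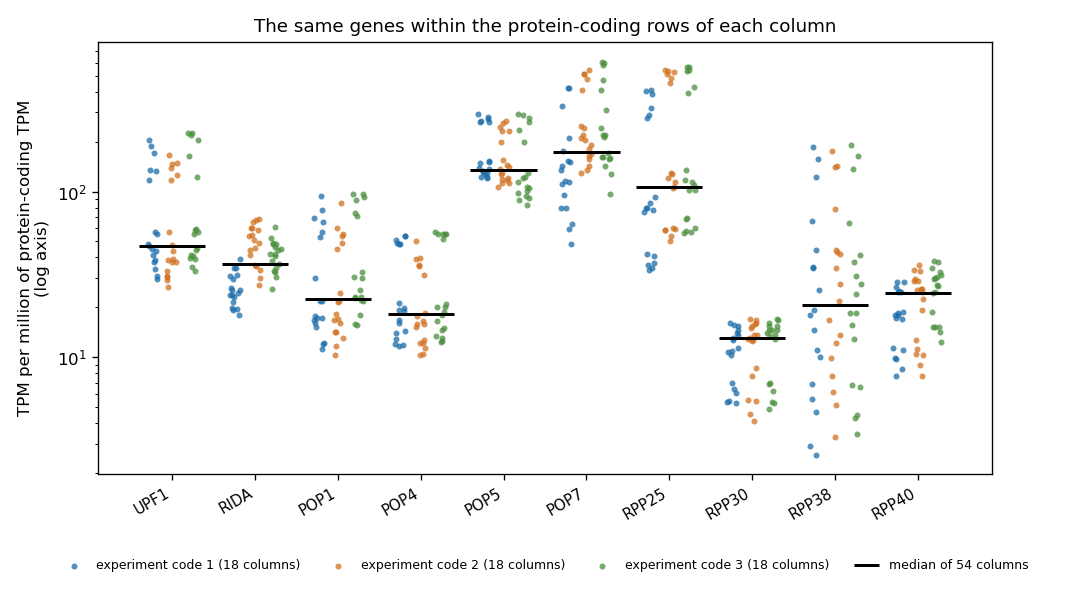
The same genes with the protein-coding transcripts of each column rescaled to the whole TPM total (log axis), with 1 point per value column, coloured by experiment code, and a black bar at the median. UPF1 runs from 26.4 to 226.6 and RIDA from 17.9 to 68.4, both narrower in ratio than in TPM.

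A ratio of 2 genes in the same column does not depend on the scaling of that column. POP1 and POP4 kept a nearly fixed proportion to UPF1. The POP1 level was between 0.321 and 0.603 times that of UPF1 in all 54 columns, with a median of 0.446, so the highest ratio was 1.88 times the lowest. Among the other genes with a median of at least 1 TPM, 8 had a narrower ratio to UPF1, or 0.0776%. POP4 was between 0.215 and 0.502 times UPF1, with a median of 0.362. Its highest ratio was 2.34 times the lowest, and 1.39% of genes had a narrower one. The median gene had a highest ratio to UPF1 that was 10.2 times its lowest.

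RPP25, POP5 and POP7 followed UPF1 less closely. The RPP25 ratio to UPF1 ran from 0.896 to 4.24, that of POP5 from 0.905 to 4.33 and that of POP7 from 1.02 to 5.48. RIDA, RPP30, RPP38 and RPP40 varied more against UPF1 than the median gene did. RPP38 was between 0.0839 and 1.12 times UPF1, a 13.3-fold range. RIDA was between 0.105 and 2.24 times UPF1, a 21.5-fold range. RPP30 was between 0.0223 and 0.546 times UPF1 and RPP40 between 0.0451 and 1.10 times, with ranges of 24.5-fold and 24.4-fold. RPP30 and RPP40 varied less against each other, and RPP40 exceeded RPP30 in all 54 columns by 1.3 to 3.09 times. These ratios were chosen after the values were seen, and are given as a description of the columns.

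**Figure D3:**
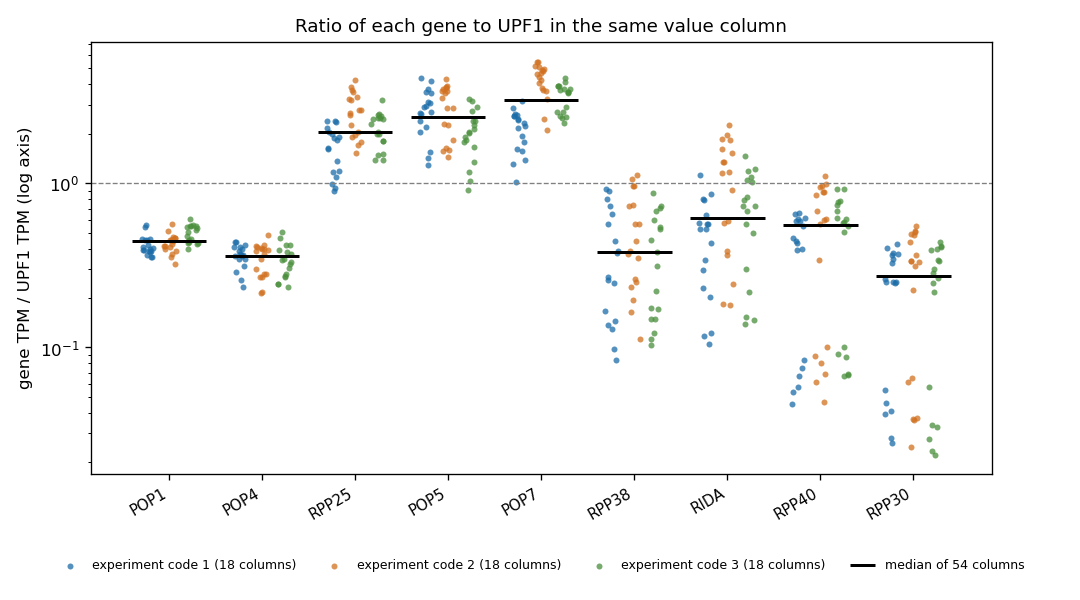
Level of each gene divided by that of UPF1 in the same value column (log axis), 1 point per column, coloured by experiment code, with a black bar at the median and a dashed line at equal levels. POP1 and POP4 form narrow bands, whereas RPP30 and RPP40 each lie in a pair of separate bands, with no RPP30 ratio between 0.0654 and 0.217.

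The bases just upstream of the annotated start are shown for UPF1 and POP4, which kept a nearly fixed proportion, and for RPP30 and RPP40, which kept closer to each other than to UPF1. Each run is the 100 bases before the start, written 5′ to 3′ on the gene's strand, from RefSeq on build GRCh38.p14. Capitals mark a match to the core of the NRF1 motif, GCATGCG, or to the 19-letter ZNF143 motif, both searched on either strand. These motifs were picked after the sequences were read.
UPF1, chr19:18831859-18831958, plus strand: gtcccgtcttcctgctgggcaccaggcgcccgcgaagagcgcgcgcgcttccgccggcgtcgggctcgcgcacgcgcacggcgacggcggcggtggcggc
POP4, chr19:29606183-29606282, plus strand: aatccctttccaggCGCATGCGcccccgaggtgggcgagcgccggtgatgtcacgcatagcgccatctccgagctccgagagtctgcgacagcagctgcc
RPP30, chr10:90871874-90871973, plus strand: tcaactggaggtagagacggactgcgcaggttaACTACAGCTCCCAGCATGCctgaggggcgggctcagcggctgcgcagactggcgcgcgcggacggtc
RPP40, chr6:5004038-5004137, minus strand: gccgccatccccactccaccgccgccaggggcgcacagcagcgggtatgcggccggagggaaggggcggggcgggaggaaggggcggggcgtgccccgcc

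The 4 upstream stretches held 81.0% G and C for UPF1 and RPP40 and 67.0% for POP4 and RPP30, beside a median of 60.0% over 35116 windows of the same length and position. Over the 8 windows matched to the 10 genes, the share ran from 52% to 84%. The NRF1 core GCATGCG was found in the POP4 window and in 2.01% of all windows. The ZNF143 motif was found in the RPP30 window and in 0.0570% of all windows. The letters TATAA, on either strand, were in 0 of the 8 windows matched to the 10 genes and in 9% of all windows. The UPF1 and RPP40 windows held neither GCATGCG nor the ZNF143 motif. Other forms of the NRF1 motif were not searched, so a window without GCATGCG is not shown to lack an NRF1 site. No window was searched for POP1 or RIDA.

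UPF1 is listed with 2 transcripts, and NM_002911 was the higher in all 54 columns. It held a median of 88.1% of the UPF1 level, with a lowest share of 71.0% and a highest of 95.5%. The other, NM_001297549, held a median of 11.9%. POP5 was also made up mainly of a single transcript, NM_015918, which was the higher in 54 columns with a median share of 86.0% and a range of 71.3% to 96.3%. For POP4, the protein-coding NM_006627 held between 95.8% and 100% in all columns, and the non-coding NR_027368 was listed at 0 in 32 columns. RIDA, POP7 and RPP25 have 1 transcript each in the table.

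The remaining subunits had a less settled main transcript. For RPP30, NM_006413 was the higher in 40 columns and NM_001104546 in 14, and the share of NM_006413 ran from 27.6% to 86.3% around a median of 78.6%. For POP1, NM_001145860 was the highest in 44 columns with a median share of 80.6%, but its share ran from 0% to 100%, and NM_001145861 and NM_015029 were the highest in 6 and 4 columns. RPP40 was divided between NM_006638, the highest in 30 columns with a median share of 50.9%, and NM_001286133, the highest in 24 with a median share of 46.3%. The 4 transcripts of RPP38 each led in some columns, NM_006414 in 24, NM_183005 in 18, NM_001097590 in 9 and NM_001265601 in 3. Isoforms of a gene share most of their sequence, and RSEM divides shared reads by estimation, so shares that move between 0% and 100% are uncertain. Since TPM is per unit of length, the summed level also depends on that division where isoforms differ in length. How far it does was not tested.

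**Figure D4:**
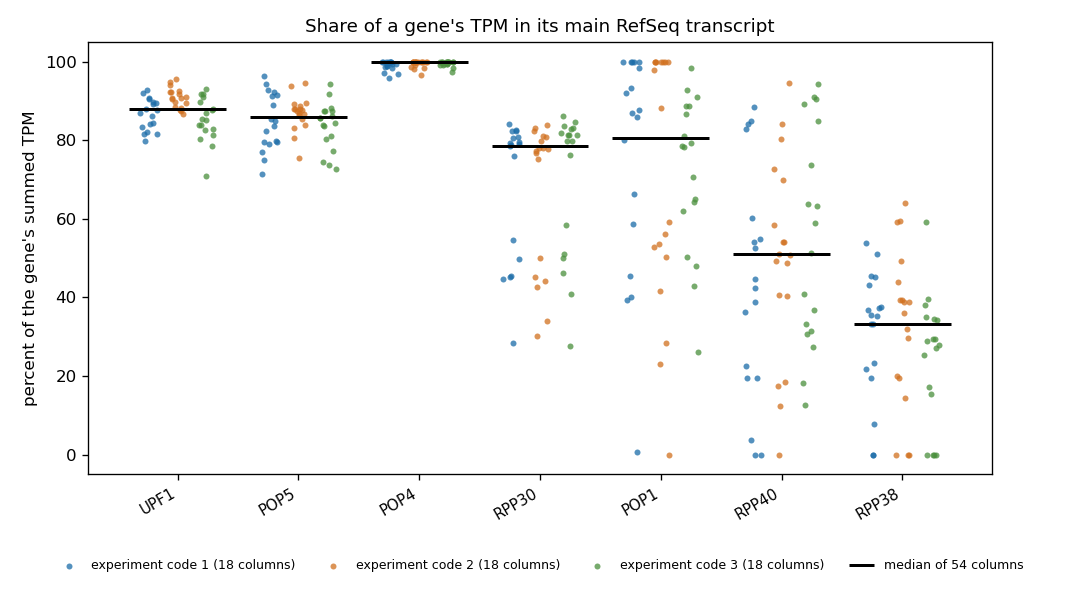
Percent of a gene's summed TPM held by its main RefSeq transcript, for the 7 genes with more than 1 transcript, with 1 point per value column, coloured by experiment code, and a black bar at the median. UPF1 stays between 71.0% and 95.5%, whereas POP1 and RPP40 spread from 0% to 100% and from 0% to 94.6%.

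Among the 10 genes, RIDA had the largest ratio between the medians of the experiment codes. Its median was 7.74 TPM in the 18 columns of the first code, 16.5 TPM in those of the second and 16.4 TPM in those of the third. The ranges overlapped, at 3.74 to 35.3, 7.81 to 35.1 and 10.1 to 56.4 TPM. Within protein-coding RNA the medians were 24.9, 50.1 and 42.1, with ranges of 17.9 to 39.0, 27.1 to 68.4 and 25.9 to 60.9. The highest of the 3 medians was 2.14 times the lowest in TPM, and 89.4% of all genes had a smaller ratio. Within protein-coding RNA it was 2.01 times, with 87.4% of genes below it.

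UPF1 had medians of 15.4, 14.0 and 19.4 TPM in the 3 codes, a ratio of 1.38, beside 1.53 for the median gene. RPP40 had the next largest ratio after RIDA, 1.83, with 77.0% of all genes below it. Its lowest median was in the second code, with 6.955, 6.36 and 11.6 TPM in the 3 codes, as for UPF1 and RPP30. POP7 was lowest in the first code, like RIDA, with medians of 41.1, 67.3 and 74.0 TPM. So was RPP25, with 21.8, 38.5 and 39.2 TPM. Of all genes, 75.7% had a smaller ratio than POP7 and 75.6% a smaller one than RPP25. POP5 differed least, with a ratio of 1.16 between its highest and lowest medians. What a code stands for is not given in the sources used here, so an siRNA, a preparation and a sequencing run cannot be told apart, and no test was made.

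The other protein subunits of RNase P/MRP were RPP14, RPP21 and RPP25L. RPP14 had a median of 3.18 TPM and ran from 0.90 to 30.8 TPM. RPP21, a subunit found in RNase P, had a median of 0.52 TPM and was listed at 0 in 20 columns. Only 1 of its 3 RefSeq transcripts is in the table, so this level is not a sum over all of them. RPP25L, a paralog of RPP25, had a median of 15.3 TPM and was below RPP25 in all 54 columns, by 1.22 to 8.97 times. Reads that fit both paralogs would be divided between them by estimation.

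The catalytic RNAs had medians far above those of the protein subunits. RPPH1 had a median of 43670 TPM and ran from 3022 to 69470 TPM. RMRP had a median of 68341 TPM and ran from 255.0 to 124947 TPM, so its highest value was 490.0 times its lowest, and 97.0% of genes had a smaller ratio. The RMRP level was between 0.0179 and 2.54 times that of RPPH1, and exceeded it in 34 of 54 columns. Both RNAs are short and lack a poly(A) tail, and how far library preparation kept them was not tested. The protein-coding share of a column, from 18.6% to 92.5%, is plotted beside both.

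**Figure D5:**
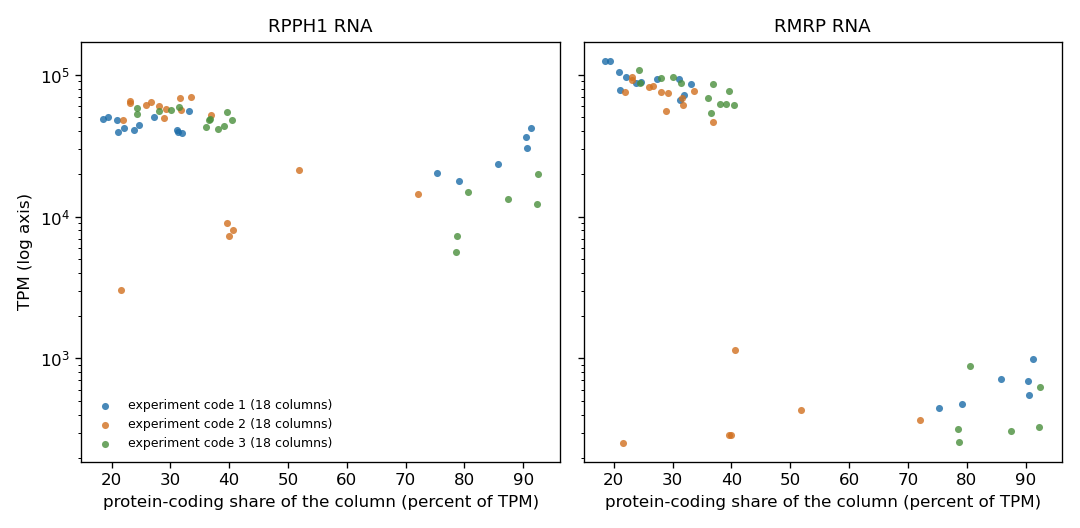
TPM (log axis) of the RNase P RNA RPPH1 (left) and the RNase MRP RNA RMRP (right) against the percent of the column's TPM in protein-coding transcripts, 1 point per value column, coloured by experiment code. RMRP values lie at or below 1139 TPM or at or above 46754 TPM, with none between, whereas RPPH1 runs from 3022 to 69470 TPM.

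The decay factors that work beside these genes covered a like span of levels. Of 19 genes of nonsense-mediated decay, all had a median of at least 1 TPM, beside 40.2% of all named genes. The median over the list was 8.60 TPM. EIF4A3, the helicase of the exon junction complex, was the highest at 95.3 TPM, and SMG6, the endonuclease of the pathway, was the lowest at 2.33 TPM. Of the 19, 4 had a higher median than UPF1, beside 3102 of all 10304 genes. Their ratio of highest to lowest value was larger than that of UPF1 in 5 of the 19, beside 3152 of all 10304 genes.

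CCR4-NOT, the deadenylase complex, was represented by 10 of 12 listed genes, since CNOT3 and CNOT6 were not named in the table. All 10 had a median of at least 1 TPM, beside 40.2% of all named genes, and the median over the list was 14.2 TPM. Its scaffold CNOT1 was the highest at 26.6 TPM and CNOT6L, a deadenylase, the lowest at 2.29 TPM. Of 15 listed genes of decapping and decay from the 5′ end, 14 were named in the table, without LSM2, and 13 had a median of at least 1 TPM. LSM7, of the LSM ring that binds RNA ends, was the highest at 114.6 TPM, and the decapping activator DCP1B was listed at 0 in all 54 columns. DCP1B has 1 transcript in the table, so its level rests on that transcript alone.

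The genes whose order over the 54 columns was most like that of UPF1 were H2AX, BEGAIN and KIFC1, with Spearman rho of 0.992, 0.991 and 0.988. For RIDA they were ATP6V1C1, CCDC91 and TPMT, with rho of 0.958, 0.954 and 0.953. The points of such a correlation share the composition of their column and come from libraries of unlike kinds, so rho is given as a description only. RIDA and POP1 are neighbouring protein-coding genes in RefSeq, on chromosome 8. Their levels did not keep a proportion: POP1 was between 0.158 and 4.36 times RIDA, and lower than RIDA in 37 columns.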

How the data were processed

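RNA from 54 libraries was sequenced. The submitters' processing notes name hg19, RSEM 1.3.0, Bowtie2 and Trim Galore, with no parameters. The deposited table gives TPM for 52000 RefSeq transcripts with 2 decimals. TPM values were made by the authors and hold no depth. Versions were removed from the accessions, which were looked up in a RefSeq table of another build (GRCh38.p14), used for names and neighbouring genes, which named 48682; upstream sequences came from a RefSeq promoter table of that build and were joined by gene symbol only. Isoforms were summed per gene with Python. Column names match no label, so no samples were compared and no test was run. Each gene is given by its lowest, median and highest column. Alternatives were rescaling to protein-coding TPM, median of ratios scaling, means on the log2(TPM + 1) scale, NM accessions only, 1 TPM added, other thresholds and leaving out each code. Named genes were the 10 chosen genes, all other RNase P/MRP genes, the highest and lowest of each other list, and the 3 most correlated with UPF1 and with RIDA. The genes and lists were chosen with earlier results of these data known. Ratios within a column and column composition were added after the values were seen. The summing and ranking code was tested on simulated data.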

Additional observations from a re-analysis of the deposited data

How the results depend on the processing

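Rescaling to protein-coding TPM moved the median of UPF1 from 16.3 to 47.1 and that of RIDA from 14.6 to 36.3. On that scale the same total is shared by protein-coding transcripts alone. It lowered the ratio of highest to lowest from 36.6 to 8.57 for UPF1 and from 15.1 to 3.82 for RIDA. With median of ratios scaling these ratios were 5.15 and 4.85. A mean on the log2(TPM + 1) scale gave 25 TPM for UPF1 and the cause of the shift from the median was not tested. Leaving out the columns of any 1 code, or counting NM accessions only, moved 0 of the 17 or 11 values recomputed by more than 1.5 times or 10 percentage points. Protein-coding rescaling moved 18 of 20 and median of ratios scaling 11 of 22. The 18 include the medians of all 10 genes, which this rescaling raises by construction. Over all genes with a median above 0, the median ratio of highest to lowest was 32.7 in place of 16.8. For RPP38 the ratio of 329.4 was 107.5 with 1 TPM added. With Pearson correlation of log2 values, 1 of the 3 genes most like UPF1 and 1 of the 3 most like RIDA remained. No paired analysis was possible because no column could be tied to a library. Read depth is unknown, so the counting error of low values such as RPP21 and RPP38 cannot be given.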

Other observations

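The 54 columns carry no group, and several quantities fell into separate sets of columns. RMRP had 18 columns at or below 1139 TPM and 36 at or above 46754 TPM, a 41.1-fold step with no value in it, and 6 of the 18 belonged to each experiment code. The RPP30 ratio to UPF1 had 18 columns at or below 0.0654 and 36 at or above 0.217, and the RPP40 ratio to UPF1 had 18 at or below 0.101 and 36 at or above 0.339, again with 6 low columns in each code. The 18 low columns of both ratios were all among the 18 low columns of RMRP. UPF1 within protein-coding RNA was at or above 117.2 in 18 columns and at or below 59.0 in the other 36, and RPP25 was at or above 110.3 TPM in 18 and at or below 44.5 TPM in 36, and for both genes the 18 high columns were the 18 low columns of RMRP. The RPP30 transcript NM_006413 held at most 58.5% of the gene's level in 18 columns and at least 75.1% in 36, and the 18 with the smaller share were again the 18 low columns of RMRP. POP1, POP4, POP5 and POP7 showed no such step in their ratio to UPF1. The widest step between neighbouring values was 1.10-fold, 1.07-fold, 1.15-fold and 1.28-fold. The same held for RIDA, RPP25 and RPP38, at 1.20-fold, 1.15-fold and 1.17-fold. A ratio to UPF1 does not show a step that a gene shares with UPF1. Within protein-coding RNA, the widest step parted 36 lower from 18 higher columns for POP1 (1.36-fold), POP4 (1.48-fold) and POP5 (1.28-fold). For POP7 it parted 40 from 14 (1.26-fold), and for RIDA and RPP38 it also fell elsewhere. What sets these columns apart was not tested. The sets were made from the values and were not used as groups of the study. Each RNA fraction also has 18 libraries, with 6 for each siRNA, and whether a set is 1 fraction cannot be told from the labels.

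The values behind these sets are given by size, so that no order of columns is implied. In ascending order, the RPP30 ratio to UPF1 in the columns of the first code was 0.0264, 0.0283, 0.0397, 0.0412, 0.0458, 0.0548, 0.246, 0.249, 0.25, 0.251, 0.262, 0.326, 0.346, 0.363, 0.370, 0.374, 0.402 and 0.427. In ascending order, the RPP30 ratio to UPF1 in the columns of the second code was 0.0247, 0.0360, 0.0370, 0.0370, 0.0619, 0.0654, 0.225, 0.312, 0.333, 0.335, 0.336, 0.365, 0.440, 0.481, 0.490, 0.501, 0.513 and 0.546. In ascending order, the RPP30 ratio to UPF1 in the columns of the third code was 0.0223, 0.0234, 0.0277, 0.0328, 0.0337, 0.0572, 0.217, 0.248, 0.263, 0.284, 0.301, 0.337, 0.341, 0.393, 0.4, 0.410, 0.414 and 0.438. RMRP in the first code, ordered from low to high, was 450.2, 477.6, 548.1, 693.7, 710.3, 996.4, 66931, 71539, 78502, 85758, 87475, 88614, 92987, 93625, 96018, 105178, 124763 and 124947 TPM. RMRP in the second code, ordered from low to high, was 255.0, 286.5, 290.0, 367.0, 432.3, 1139, 46754, 55595, 61157, 68362, 73914, 75666, 76057, 76517, 82084, 83935, 92118 and 96953 TPM. RMRP in the third code, ordered from low to high, was 256.7, 305.9, 319.4, 328.6, 632.3, 890.7, 53578, 61669, 61838, 62744, 68320, 76628, 86380, 86844, 87018, 94494, 95788 and 108198 TPM.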
